A study of Mus musculus with 20 samples.

Results

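Car1, Car2, Klf1, Gata1, Epor, Tfrc, Hbb-bt, Hba-a1 and Ermap are genes of the red cell lineage, among them a pair of carbonic anhydrases, and were followed in mouse hematopoietic stem cells (HSCs). They are 9 of 49671 gene IDs in the RNA count files, taken by name through their Ensembl IDs. They were chosen with the RNA contrast of these libraries known, so their RNA values are a description and carry no test. The study deleted Kdm6b, which encodes a histone H3 lysine 27 demethylase, and asked which transcripts and which accessible chromatin differ in HSCs without it. HSCs were sorted from marrow as Lin- cKit+ Sca1+ CD150+ CD48- cells of C57BL/6 mice aged 8 weeks. Both RNA groups carried the Vav Cre driver, which is active across blood cells. For RNA, 3 libraries labelled Control came from Vav-CRE:Kdm6b+/+ mice and 3 labelled Kdm6b-KO from Vav-CRE:Kdm6bfl/fl mice. Each of the 6 was made from marrow pooled over 3 males and 3 females, so differences between single animals were not measured. They are called Control 1 to 3 and KO 1 to 3 below, and the ATAC libraries are numbered apart from them. Accessible chromatin was mapped by ATAC-seq, in which a transposase cuts open DNA, in 3 libraries titled Control and 3 titled 6bKO. The genotype label of all 6 ATAC libraries reads Wild-type, so their groups rest on the titles. The other 8 of the 20 samples were not analysed here.

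Red cells form from HSCs through progenitors that switch on the transcription factors Gata1 and Klf1. These drive globin, heme synthesis and membrane genes, while erythropoietin acts through its receptor Epor, and Tfrc brings in the iron for heme. Carbonic anhydrases interconvert carbon dioxide and bicarbonate, and Car1 and Car2 are the cytosolic forms abundant in red cells. In resting HSCs the globin genes and Klf1 are known to be low.

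Gene counts per RNA library ranged from 6793873 to 13797890 in Control and from 8683106 to 19336121 in KO, and a floor of 3 counts lay at 0.148 to 0.461 CPM (counts scaled by library size and TMM factor). Kdm6b itself held 92.0, 282.5 and 220.6 CPM in Control 1 to 3 and 142.5, 202.1 and 191.3 CPM in KO 1 to 3, and the groups overlapped. These are counts over the whole gene, and the extent of the deleted part is not stated in what was used here, so they cannot check the genotype labels. Transcripts of the sort genes were present, with Kit at 781.1 to 2169 CPM, Slamf1 (CD150) at 49.7 to 80.8 CPM and Ly6a (Sca1) at 51.2 to 99.0 CPM over the 6 libraries. Cd48, negative in the gate, was at 4.60 to 16.7 CPM. Neutrophil transcripts set KO 2 and KO 3 apart from the other 4 libraries. The summed level of 13 neutrophil markers, of which Mmp8 and Retnlg were at 0 in KO 3 and all others were detected in every library, was 3693, 1197 and 2136 CPM in Control 1 to 3, 4340 CPM in KO 1, and 195.4 and 192.8 CPM in KO 2 and KO 3. Between KO and Control, 37 genes rose and 33 fell among 15185 tested (edgeR's quasi-likelihood test with Benjamini-Hochberg adjustment, two-sided, adjusted p under 0.05), and with library totals in place of TMM factors 70 rose and 30 fell.

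The 250 bases before the annotated start are printed for 5 of the genes from RefSeq's table for GRCm38.p6, the assembly of mm10, 5′ to 3′ on the strand of each gene. Klf1, Tfrc and Ermap are shown because an ATAC peak fell in the window, and Hbb-bt and Hba-a1 because these adult globin genes had log2 fold changes of opposite sign. Capitals mark 4 kinds of match, which may overlap one another. They are the GATA motif (AGATA or TGATA with A or G after it, either strand), the CACCC box (CCNCNCCC, either strand), the CCAAT box (CCAAT, either strand) and the TATA box (TATAAA or TATAAG, gene strand).
Klf1, chr8:84901732-84901981, plus strand: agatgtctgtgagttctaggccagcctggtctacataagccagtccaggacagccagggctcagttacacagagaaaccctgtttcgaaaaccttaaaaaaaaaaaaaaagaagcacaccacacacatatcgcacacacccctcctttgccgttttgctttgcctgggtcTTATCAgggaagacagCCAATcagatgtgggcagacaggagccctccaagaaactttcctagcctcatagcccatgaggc
Tfrc (the upstream of its 2 starts), chr16:32608646-32608895, plus strand: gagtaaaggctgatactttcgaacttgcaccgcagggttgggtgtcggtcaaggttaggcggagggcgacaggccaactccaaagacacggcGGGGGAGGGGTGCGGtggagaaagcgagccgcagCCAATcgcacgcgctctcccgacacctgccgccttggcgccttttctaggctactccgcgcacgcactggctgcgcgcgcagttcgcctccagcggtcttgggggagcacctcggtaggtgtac
Ermap, chr4:119189996-119190245, minus strand: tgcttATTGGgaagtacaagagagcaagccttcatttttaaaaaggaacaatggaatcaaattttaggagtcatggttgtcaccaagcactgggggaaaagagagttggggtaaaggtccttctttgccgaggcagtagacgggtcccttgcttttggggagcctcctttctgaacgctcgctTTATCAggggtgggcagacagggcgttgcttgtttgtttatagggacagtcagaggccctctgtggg
Hbb-bt, chr7:103813924-103814173, minus strand: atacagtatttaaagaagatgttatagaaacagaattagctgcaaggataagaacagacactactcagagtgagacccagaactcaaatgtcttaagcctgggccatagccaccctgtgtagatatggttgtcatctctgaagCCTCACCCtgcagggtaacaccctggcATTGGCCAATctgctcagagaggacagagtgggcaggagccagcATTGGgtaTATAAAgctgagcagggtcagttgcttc
Hba-a1, chr11:32283422-32283671, plus strand: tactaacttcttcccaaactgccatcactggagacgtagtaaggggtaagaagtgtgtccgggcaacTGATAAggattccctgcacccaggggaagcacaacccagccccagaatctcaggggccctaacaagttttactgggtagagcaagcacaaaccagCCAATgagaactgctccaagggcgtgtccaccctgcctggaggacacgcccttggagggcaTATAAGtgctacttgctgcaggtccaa

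Counted from -1, the base before the start, the Klf1 window held a GATA match from -80 to -75 and a CCAAT box from -64 to -60, and the Ermap window a GATA match from -67 to -62. The Hba-a1 window held a GATA match from -183 to -178 and a TATA box from -27 to -22. The Hbb-bt window held a CACCC box from -107 to -100, a TATA box from -28 to -23 and no GATA match. The upstream Tfrc window held 3 overlapping CACCC matches between -158 and -144. Such letters are common. Among 32851 promoter windows of the same length, 26.5% held a GATA match, 45.9% a CACCC box, 33.8% a CCAAT box and 11.2% a TATA box, so each match is a description of the sequence. An ATAC peak overlapped the printed window in all 6 ATAC libraries at Tfrc, in ATAC Control 2 and 3 at Klf1, in the ATAC library titled 6bKO replicate 1 at Ermap, and in none at either globin gene.

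All 9 genes passed the filter on low counts. None was called by edgeR's quasi-likelihood test with Benjamini-Hochberg adjustment, where 0.461% of all tested genes were called, and nothing is read from this because the genes were chosen on that contrast. Their log2 fold changes (KO over Control) were negative for 7 and positive for 2, Epor and Hbb-bt, with a median of -0.84 against -0.00 over all tested genes. Car2, Gata1 and Ermap were lower in every KO library than in every Control library, and Hbb-bt was higher in every one. Over all tested genes, 9.49% were lower and 11% higher without overlap, 20.5% in either direction. Counts are not scaled to transcript length here, so levels are compared between libraries for 1 gene and not between genes. In sorted cells measured in bulk, fewer cells of a type and less RNA per cell cannot be told apart.

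**Figure D1:**
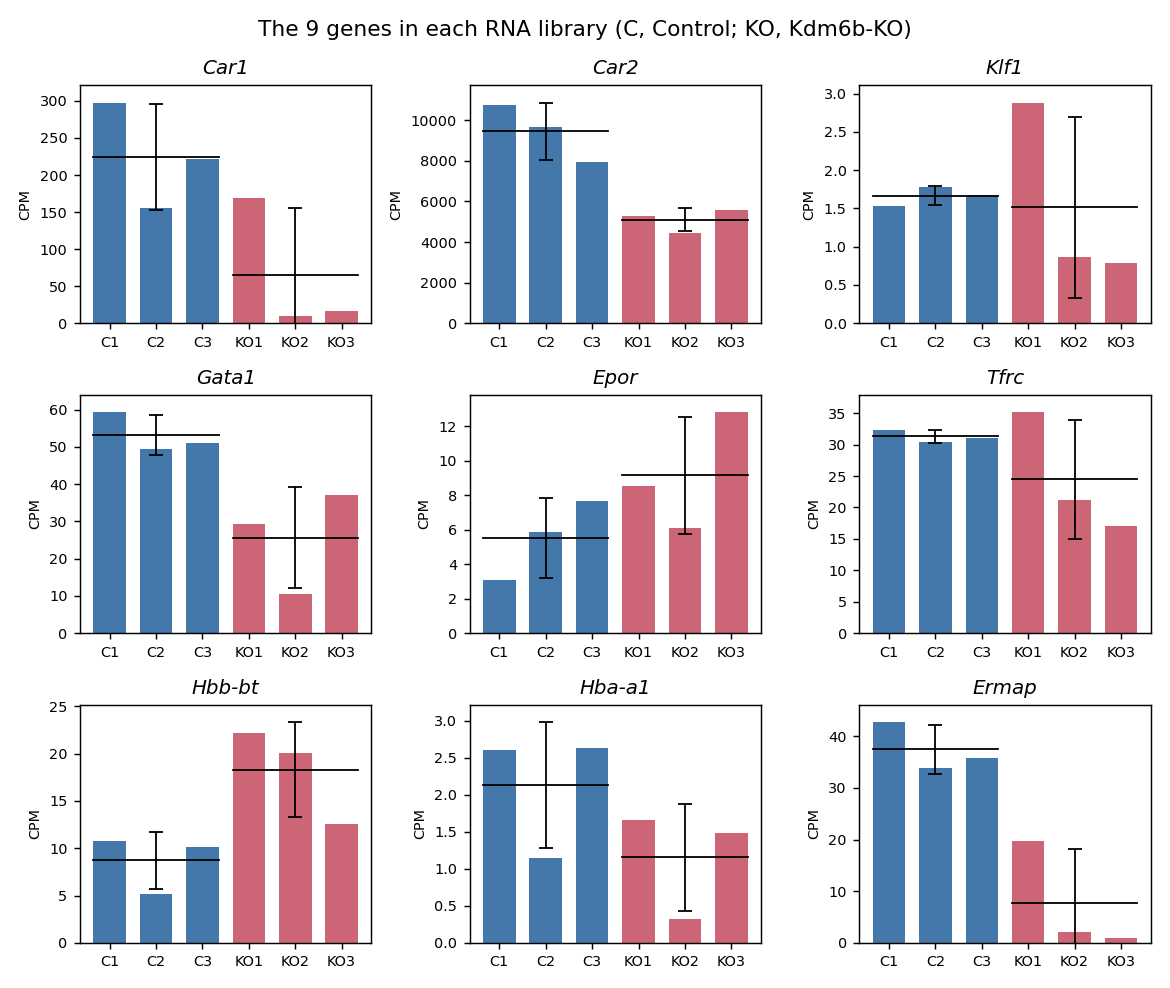
Level in CPM (y axis, from 0) of each of the 9 genes in the 6 RNA libraries (x axis), with blue bars for Control, red bars for Kdm6b-KO, and black lines and error bars for the group mean and SD (n = 3), which are cut off at 0. KO 2 and KO 3 are far below the other libraries for Car1 and Ermap, Car2 is lower in all 3 KO libraries, and Hbb-bt is higher in all 3.

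Car2 was the most counted of the 9, taking 0.787% to 1.03% of gene counts in Control and 0.471% to 0.583% in KO. It held 10761, 9643 and 7937 CPM in Control 1 to 3 and 5265, 4453 and 5577 CPM in KO 1 to 3. The 3 KO libraries lay close together and below each Control library. The means were 9447 ± 1422 and 5098 ± 580 CPM (SD, n = 3 each), and the log2 fold change was -0.89 (SE 0.26). Over the alternatives tried, including leaving out any 1 library, the log2 fold change of Car2 stayed between -0.998 and -0.74.

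Car1, its paralog, lies on the same chromosome (Car1 at chr3:14766214-14808365 and Car2 at chr3:14886269-14900770) and did not share this pattern between libraries. It held 297.8, 154.9 and 221.2 CPM in Control 1 to 3, 169.2 CPM in KO 1, and 10.2 and 17.1 CPM in KO 2 and KO 3. KO 1 thus sat inside the Control range, and the other 2 KO libraries far below it. The counts behind the lowest values were 94 and 346, well above the floor of 3. Car1 overlaps the predicted gene Gm16399, and the strand setting of the counting is not given, so reads of the 2 could be mixed. The means were 224.6 ± 71.5 and 65.5 ± 89.9 CPM (SD, n = 3 each), and the log2 fold change was -1.78 (SE 1.26), and -4.02 without KO 1. The neutrophil marker sum was also lowest in KO 2 and KO 3, at 195.4 and 192.8 CPM. In KO 1, at 4340 CPM, it was above Control (1197 to 3693 CPM), unlike Car1. The sum of 11 monocyte and macrophage markers was 102.4 CPM in KO 1 against 33.9 and 36.5 CPM in KO 2 and KO 3, beside 50.6 to 78.0 CPM in Control. The markers in this sum did not move together. Ly6c2 held 42.7, 0.436 and 0.297 CPM in KO 1 to 3, but Csf1r 14.2, 18.2 and 24.8 CPM. Of 9 tested, 3 had KO 2 and KO 3 both under 0.5 of the lowest Control library. The part of the neutrophil and monocyte markers in the Car1 values was not tested.

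Ermap, which encodes an erythroblast membrane protein that carries the Scianna blood group in humans, split the KO libraries as Car1 did. It held 42.7, 33.8 and 35.8 CPM in Control 1 to 3, 19.8 CPM in KO 1, and 2.18 and 0.940 CPM in KO 2 and KO 3. Each KO library was below each Control library, with KO 1 between Control and the other KO libraries. The means were 37.4 ± 4.67 and 7.62 ± 10.5 CPM (SD, n = 3 each), and the log2 fold change was -2.31 (SE 1.21), and -4.67 without KO 1. The same neutrophil marker split stood beside it and its part was not tested.

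The transcription factor genes Gata1 and Klf1 behaved differently from each other. Gata1, the zinc finger factor of red cells and megakaryocytes, held 59.3, 49.4 and 51.0 CPM in Control 1 to 3 and 29.3, 10.6 and 37.0 CPM in KO 1 to 3. All 3 KO libraries were below Control, with the lowest in KO 2, and unlike for Car1 and Ermap the highest KO value was in KO 3. The means were 53.2 ± 5.29 and 25.6 ± 13.6 CPM (SD, n = 3 each), and the log2 fold change was -1.04 (SE 0.37), or -0.68 without KO 2. Gata1 overlaps the predicted genes Gm39488 and Gm52419, with the same limit. The summed level of 11 megakaryocyte markers, cells that also use Gata1, was 1200 to 2001 CPM in Control and 1702 to 2065 CPM in KO. That of 8 mast cell and basophil markers, also Gata1-dependent cells, was 14.8 to 81.6 CPM in Control and 5.34 to 12.4 CPM in KO, with Tpsb2 and Cma1 at or near 0 in all libraries. The highest Control sum was that of Control 1, where the basophil protease gene Prss34 alone held 51.3 CPM, against 7.62 and 0.438 CPM in Control 2 and Control 3. Their part in the Gata1 values was not tested.

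Klf1, the erythroid factor that binds CACCC boxes, was near the limit of detection. It held 1.54, 1.78 and 1.68 CPM in Control 1 to 3 and 2.88, 0.872 and 0.791 CPM in KO 1 to 3, from 8 to 33 counts. KO 1 was above all Control libraries and KO 2 and KO 3 below them. The log2 fold change was -0.15 (SE 0.63) and its sign turned when KO 2 (0.11) or KO 3 (0.19) was left out.

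Epor, the erythropoietin receptor, and Tfrc, the transferrin receptor, pointed to opposite sides. Epor held 3.07, 5.85 and 7.67 CPM in Control 1 to 3 and 8.57, 6.10 and 12.8 CPM in KO 1 to 3. The groups overlapped, because KO 2 lay between Control 2 and Control 3. The means were 5.53 ± 2.32 and 9.16 ± 3.39 CPM (SD, n = 3 each), and the log2 fold change was 0.72 (SE 0.39). It was 0.39 without KO 3, 0.45 without Control 1 and 1.04 without Control 3. Tfrc was nearly constant in Control, at 32.4, 30.4 and 31.1 CPM, and spread in KO, at 35.1, 21.1 and 17.1 CPM. KO 1 was again above Control and KO 2 and KO 3 below it, and the log2 fold change was -0.36 (SE 0.27), or -0.71 without KO 1 and -0.15 without KO 3.

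The adult globin genes were low in every library and did not move together. Hbb-bt, an adult beta globin gene, held 10.8, 5.21 and 10.2 CPM in Control 1 to 3 and 22.2, 20.1 and 12.6 CPM in KO 1 to 3, from 41 to 255 counts. Each KO library was above each Control library, KO 3 by little. The means were 8.71 ± 3.04 and 18.3 ± 5.03 CPM (SD, n = 3 each), and the log2 fold change was 1.06 (SE 0.33). Hba-a1, an adult alpha globin gene, held 2.61, 1.14 and 2.63 CPM in Control 1 to 3 and 1.66, 0.327 and 1.48 CPM in KO 1 to 3, the lowest resting on 3 counts. Those groups overlapped, with a log2 fold change of -0.84 (SE 0.64), or -0.44 without KO 2, the library with 3 counts.

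Each of these globin genes has a near-identical neighbour. Reads that did not align uniquely, 37.6% to 46.8% of reads, were kept apart from the gene counts. The globin counts could therefore lack reads that match both copies and rest on the bases where the copies differ. Hbb-bs held 6.14, 2.16 and 9.79 CPM in Control 1 to 3 and 4.11, 1.09 and 4.85 CPM in KO 1 to 3, so that the beta globin copies had log2 fold changes of opposite sign (1.06 for Hbb-bt and -0.84 for Hbb-bs). Hba-a2, at 0.127 to 1.68 CPM, did not pass the filter. The values of all 4 adult globin genes are uncertain for this reason. The embryonic gene Hbb-bh1 had a count of 0 in all 6 libraries.

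Across the 6 libraries, log2(CPM + 1) of Car1 and Ermap correlated at r = 0.97, of Ermap and Tfrc at 0.94, and of Car1 and Tfrc at 0.91 (Pearson, n = 6, libraries that share their depth and scaling factor between genes). Car1 and Car2 correlated at 0.77, Gata1 with Car2 at 0.85, and Hbb-bt with Car2 at -0.81. Ranked over 10258 tested genes averaging 5 CPM or more, the 5 whose pattern was most like Car1 were Clec5a (a myeloid lectin receptor, r = 0.99), Slc38a5 (an amino acid transporter, 0.99), Rhd (a red cell antigen, 0.99), Cd177 (a neutrophil surface protein, 0.98) and Ms4a6c (a membrane protein, 0.98). Cd177 held 41.0, 20.1 and 34.6 CPM in Control 1 to 3, 44.9 CPM in KO 1, and 1.31 and 2.82 CPM in KO 2 and KO 3. The 5 most like Car2 were Mef2c (a transcription factor, r = 1.00), Hivep1 (a zinc finger protein, 0.99), Idh3a (a mitochondrial dehydrogenase subunit, 0.99), Hspa8 (a constitutive chaperone, 0.99) and Cryzl1 (a quinone oxidoreductase-like protein, 0.99). Mef2c held 679.4, 657.6 and 601.1 CPM in Control 1 to 3 and 520.6, 489.4 and 538.1 CPM in KO 1 to 3. These genes were picked by that correlation, so sharing the pattern of Car1 or Car2 follows from the choice. Those most like Car1 had the split of KO 1 from KO 2 and KO 3, which was small in Ms4a6c. Those most like Car2 had the 3 KO libraries together.

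The split between KO libraries was counted with a rule chosen after the values were seen, namely KO 2 and KO 3 both under 0.5 of the lowest Control library. Car1 and Ermap met it among the 9 genes, and 155 of 15185 tested genes (1.02%) met it. Of 19 tested red cell membrane and skeleton genes, 7 met it. The 7 and the 19 include Ermap, which was chosen on this contrast. Sptb, Ank1, Rhd, Kel and Add2 also met the rule. Of 13 neutrophil markers, 11 met it. Rhd, a blood group antigen gene, held 50.8, 22.5 and 25.3 CPM in Control 1 to 3, 16.2 CPM in KO 1, and 1.20 and 2.23 CPM in KO 2 and KO 3. It was not called (adjusted p = 0.410, edgeR). Of 14 tested erythroid transcription factor genes and 11 of heme synthesis, 0 met the rule, and of 10 iron genes 1 did, the iron exporter gene Slc40a1.

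**Figure D2:**
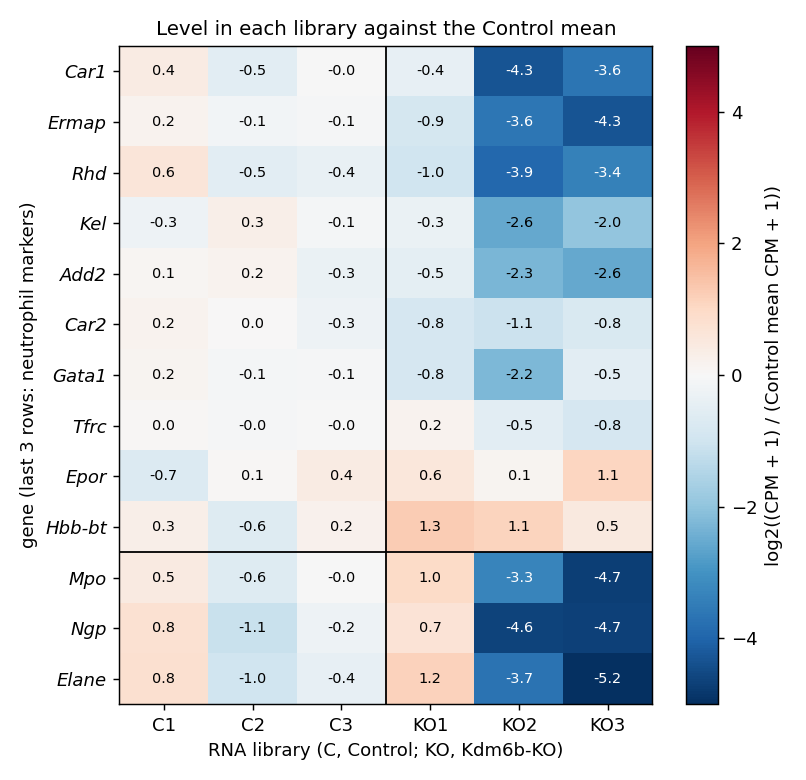
Level of 10 erythroid or carbonic anhydrase genes and 3 neutrophil marker genes (rows) in each RNA library (columns), as log2 of (CPM + 1) over (Control mean CPM + 1), blue for lower and red for higher, with the value in each cell. Kel, Add2, Mpo, Ngp and Elane were picked for display after their values were seen. Car1, Ermap, Rhd, Kel and Add2 are lowest in KO 2 and KO 3, as are the neutrophil genes, whereas Car2 is lower by a similar amount in all 3 KO libraries.

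**Figure D3:**
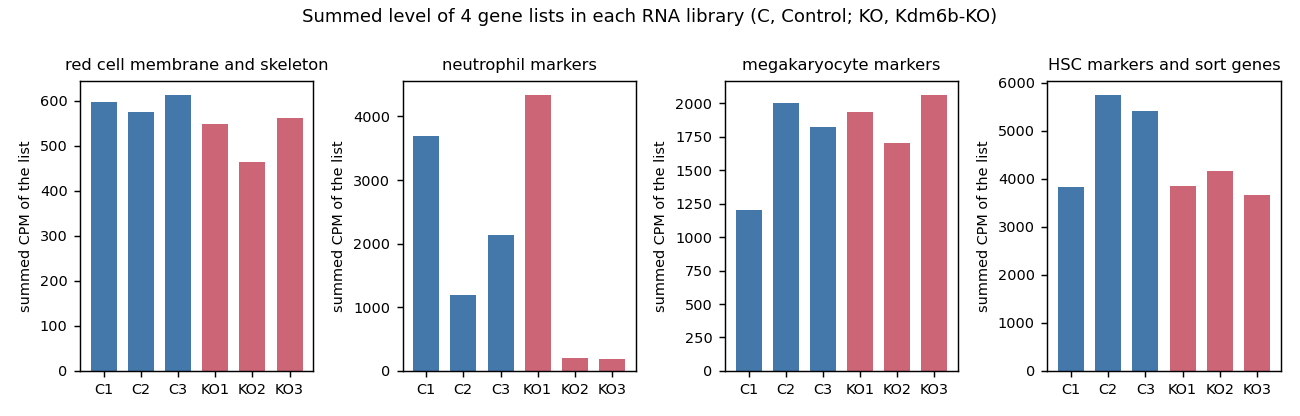
Summed CPM (y axis, from 0) of the red cell membrane and skeleton list and of 3 marker lists in each RNA library (x axis), blue for Control and red for Kdm6b-KO, with no error bars because each bar is 1 library. The neutrophil sum falls to 195.4 and 192.8 CPM in KO 2 and KO 3, while the membrane list, whose sum rests on its most counted genes, stays between 464.4 and 613.2 CPM.

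The wider pathway was read from 7 lists of erythroid and carbonic anhydrase genes. They name 96 genes, of which 92 are in the files and 83 are not among the 9. Of these 83, 71 were tested and 0 were called by edgeR's quasi-likelihood test with Benjamini-Hochberg adjustment. At an unadjusted p under 0.05, 6 were higher and 7 lower, 18.3% against 14.8% of all tested genes. DESeq2, which called 3.2% of all genes with an adjusted p, called 5 of them, with Bcam, Ldb1, Abcb10 and Cish higher and Rhag lower. The 71 genes had 34 positive and 37 negative log2 fold changes, with a median of -0.03 beside -0.00 over all tested genes.

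Erythropoietin signalling genes were mostly on the higher side and red cell membrane genes had the widest range among the 7 lists. In the signalling list, 11 of 12 tested genes had a positive log2 fold change, against 7574 of all 15185 tested genes. Epor, chosen on this contrast, is among the 11. The list had a median of 0.38. By edgeR's quasi-likelihood test, 3 of its genes were higher at an unadjusted p under 0.05 and 0 were called. Its most counted genes, the kinase gene Pim1 and the phosphatase gene Ptpn6, had log2 fold changes of 0.05 (SE 0.24) and 0.09 (SE 0.22). Cish, a feedback inhibitor of cytokine signalling, had the smallest adjusted p of the 71 genes and is named after its values were seen. It held 77.6, 67.2 and 68.6 CPM in Control 1 to 3 and 107.8, 124.7 and 185.5 CPM in KO 1 to 3, with no overlap, a log2 fold change of 0.97 (SE 0.22) and an adjusted p = 0.0726 by edgeR.

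In the membrane list, 8 of 19 tested genes were positive and 11 negative, Ermap among the 11, with a median of -0.36, and 0 were called. Its most counted genes, the glycophorin C gene Gypc and the skeleton protein 4.1 gene Epb41, had log2 fold changes of 0.15 (SE 0.19) and 0.13 (SE 0.21). Gypc held 168.5 to 196.0 CPM in Control and 178.3 to 213.8 CPM in KO, so KO 2 and KO 3 were not below Control as for Ermap. Rhag, the Rh-associated glycoprotein gene, is named because DESeq2 called it. It held 32.7, 24.7 and 40.8 CPM in Control 1 to 3 and 19.8, 7.30 and 12.5 CPM in KO 1 to 3, without overlap (log2 fold change -1.31, SE 0.33, adjusted p = 0.114 by edgeR).

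The other lists had medians of -0.11 for 14 transcription factor genes, -0.22 for 11 heme synthesis genes, -0.08 for 10 iron genes and -0.17 for 11 carbonic anhydrase genes, and 0 called in each. Foxo3 and Lmo2, the most counted transcription factor genes, had log2 fold changes of -0.26 (SE 0.24) and -0.04 (SE 0.23). Ppox and Alas1, of heme synthesis, had -0.22 (SE 0.24) and 0.14 (SE 0.22). The erythroid form Alas2 was at 1.38 to 3.36 CPM in Control and 0.874 to 1.83 CPM in KO. The ferritin genes Fth1 and Ftl1 had 0.77 (SE 0.89) and 0.21 (SE 0.20), and Control 1 stood apart for Fth1 at 156.8 CPM against 1337 to 2366 CPM elsewhere. Among the carbonic anhydrases, Car9 held 26.96 to 28.7 CPM in Control and 29.3 to 41.2 CPM in KO, and Car3, between Car1 and Car2 in the genome, 20.02 to 29.5 and 13.9 to 24.0 CPM. In the globin list, 9 of 12 names were in the files and 3 genes were tested, with a median of -0.84. These 3 include Hbb-bt and Hba-a1. The transcription factor median likewise includes Klf1 and Gata1, the iron median Tfrc, and the carbonic anhydrase median Car1 and Car2. Those medians thus repeat in part the values of genes chosen on this contrast.

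**Figure D4:**
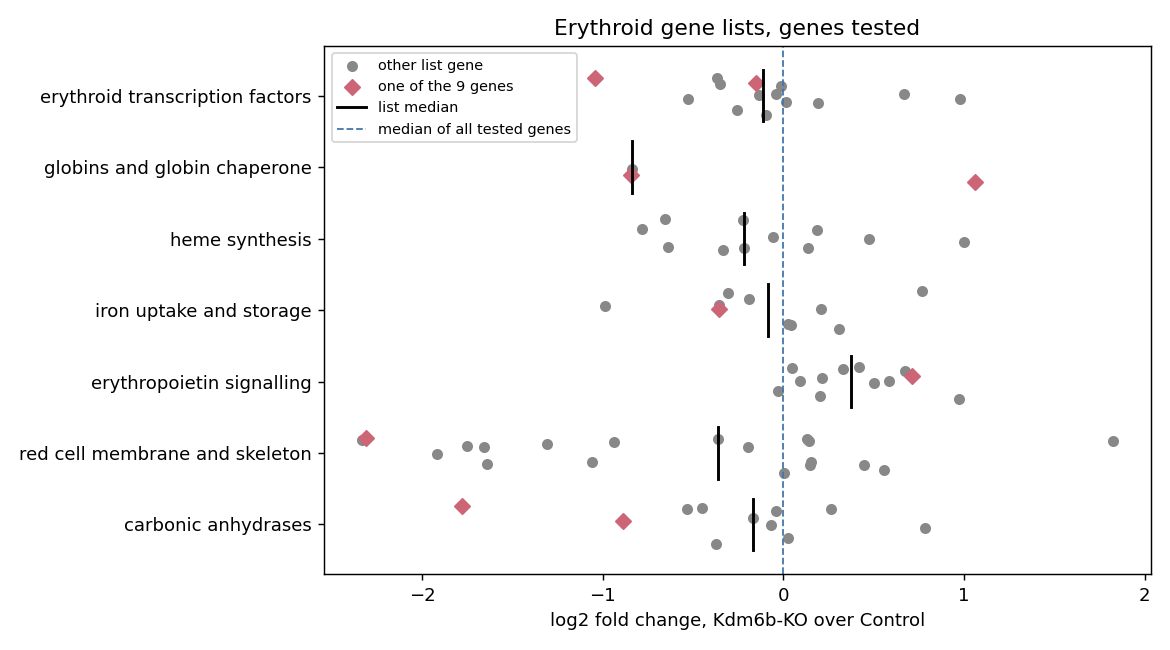
Log2 fold change of Kdm6b-KO over Control (x axis) for each tested gene of 7 lists (y axis), with diamonds for the 9 genes, grey points for other list genes, a black line for each list median and a dashed line for the median of all tested genes (vertical scatter within a list has no meaning). Erythropoietin signalling lies mostly to the right, with a median of 0.38, and the membrane list reaches farthest left, to Rhd and Ermap at -2.33 and -2.31.

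The ATAC peak lists gave a readout other than the RNA contrast on which the genes were chosen. The lists held 47450, 44739 and 62125 peaks in Control replicates 1 to 3 and 63682, 53692 and 69729 in the libraries titled 6bKO. In or within 50 kb of the 9 genes lay 49, 47 and 68 peaks in Control and 49, 53 and 68 in 6bKO. The number of peaks near the genes did not differ beyond the spread (54.7 ± 11.6 against 56.7 ± 10.0, SD, n = 3 each, exact permutation test, two-sided, p = 0.8). As a share of each list, this was 10.3, 10.5 and 10.9 per 10000 peaks in Control and 7.69, 9.87 and 9.75 in 6bKO. The shares did not overlap (10.6 ± 0.319 against 9.11 ± 1.22, SD, n = 3 each). The difference of -1.49 per 10000 peaks had p = 0.1 in the exact permutation test, two-sided, the smallest that 3 against 3 allows, and it was -0.78 without 6bKO replicate 1. The lists titled 6bKO were also longer on average (62368 ± 8099 against 51438 ± 9354 peaks, exact permutation p = 0.2), and the read depth of these libraries is unknown here.

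Merging peaks that overlapped by at least 1 bp gave 113 regions near the 9 genes among 149774 in all. Of the 113, 26 (23.0%) were open in all 6 libraries, against 13.0% of all regions, and 47 (41.6%) in a single library, against 59.9%. No region near the genes was open in all 3 Control libraries and no 6bKO library, a pattern of 0.288% of all regions. The reverse held for 1 region (0.885%, against 1.30% of all regions), at chr9:22010786-22011320 in Prkcsh, within the Epor window. The windows also hold 2 to 11 other genes each, so a region near a gene need not belong to it.

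The carbonic anhydrase loci differed in how many regions they held. Around Car2 there were 14 regions, of which 3 were open in all 6 libraries. The one at the lower end of the gene (chr3:14886098-14886984) had the authors' fold enrichment between 8.48 and 13.8, and another lay in Car3 (chr3:14871298-14871750, 11.2 to 18.4). Around Car1 there were 3 regions and none was open in all 6. A region at the upper end of Car1 (chr3:14808286-14808697) was called in Control 2 and Control 3 and in no library titled 6bKO, and a region inside the gene (chr3:14774729-14775082) in 6bKO 1 alone. The third, chr3:14765160-14765309, lay 905 bp below the gene in Control 1 alone. Nothing in the labels ties the replicate numbers of the 2 assays together.

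At the transcription factor and receptor genes, the regions called in all 6 libraries numbered 6 for Klf1, 1 for Gata1, 4 for Epor and 2 for Tfrc, and those called in a single library 3, 7, 6 and 8. Klf1 had 15 regions in its window, the 6 open in all libraries including one inside the gene (chr8:84902805-84903650, authors' fold 9.04 to 21.7). The region over its start (chr8:84901714-84902043), which covers the printed sequence, was called in Control 2 and Control 3 only, at 3.77 and 3.03. Gata1 had 11 regions, and the one 3594 bp upstream of the start used here (chrX:7971229-7971780) was called in all 3 Control libraries and in 6bKO 3. A second region inside the Gata1 span (chrX:7964141-7964347) was called in Control 2 alone. Epor had 16 regions, with one inside the gene in all 6 libraries (chr9:21962325-21962942) and one in 6bKO 1 alone (chr9:21961852-21962001). Tfrc had 17, with the one over its start open in all 6 (chr16:32608631-32609444, 12.3 to 19.5) and one inside the gene in Control 3 alone (chr16:32614161-32614389).

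At the globin genes and Ermap, the regions shared by all libraries lay outside the genes. Hbb-bt had 10 regions and none in its span. A region 2 bp from the end of the gene (chr7:103812132-103812522) was called in Control 2, 6bKO 1 and 6bKO 3, and one beyond it (chr7:103808943-103809339) in all 6. Hba-a1 had 13 regions and none in its span, and the 3 open in all 6 included a pair in Nprl3 (chr11:32265120-32265441 and chr11:32267288-32267837). Introns of Nprl3 are known to hold enhancers of the alpha globin genes, but which regions cover them was not examined. Other regions in Nprl3 were called in fewer libraries. Among them, chr11:32245647-32245955 was called in Control 3 and 6bKO 3, and chr11:32250751-32251001 in Control 2 alone. Ermap had 14 regions, 5 of them open in all 6 and none of those inside the gene. The regions inside it were each called in 1 library, at the start (chr4:119189859-119190075, over part of the printed sequence) in 6bKO 1 and at chr4:119188253-119188745 in Control 3.

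**Figure D5:**
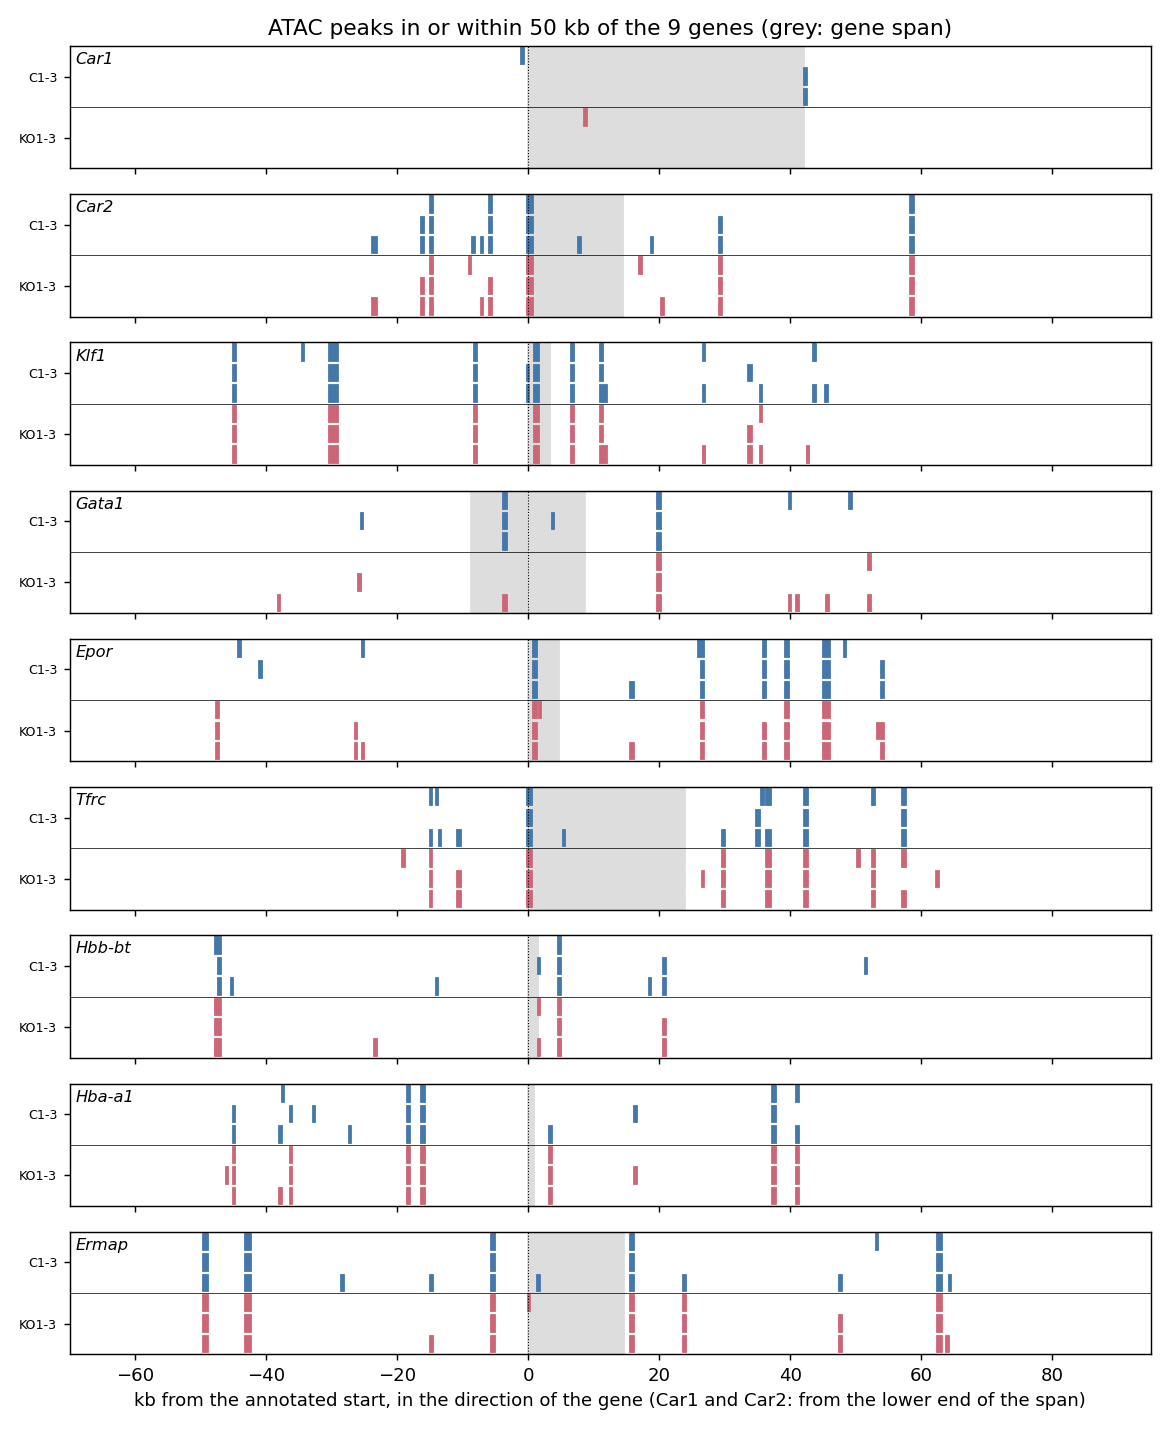
ATAC regions called in each library (6 rows a panel, blue for Control 1 to 3 from the top, red for the libraries titled 6bKO 1 to 3) in or within 50 kb of each gene, against distance in kb from the annotated start in the direction of the gene, or from the lower end of the span for Car1 and Car2 (x axis, grey for the gene span, narrow regions drawn wider to be seen). Car1 has 3 regions and none in all 6 rows, Tfrc has one over its start in all 6, and Hbb-bt and Hba-a1 have none inside the span.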

How the data were processed

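RNA was counted in 3 Control and 3 Kdm6b-KO libraries and ATAC peaks were listed for 3 Control and 3 6bKO libraries, on mm10 per the labels. The authors deposited raw read counts per Ensembl gene. Per the submitters' processing notes, the RNA tools were STAR 2.0.4, featureCounts 1.4.5, HTSeq 0.8.0 and Partek 6.6 and the ATAC tools cutadapt 1.16, BWA 0.7.16a and MACS2, without their roles. The SMARTer Ultra Low kit amplifies cDNA from 3 to 5 ng of RNA, so counts are not independent molecules, and p-values measure the spread between these libraries. Neither annotation release nor strand setting is stated there. The deposited ATAC lists, 1 per library, give the authors' fold enrichment as a ratio and p and q as −log10 values. The folds are each peak's own and describe peaks only. Lines of the count files that name no gene were left out of library sizes, and 16.5% to 19.7% of reads were assigned to genes, with 37.6% to 46.8% not uniquely aligned.

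In R 4.3.3, edgeR 4.0.16 tested the counts by a robust quasi-likelihood fit on genotype, after filterByExpr by group and TMM scaling (factors of 0.894 to 1.06), two-sided, with Benjamini-Hochberg adjustment over 15185 genes and a threshold of 0.05. The code was tested on simulated counts. CPM use TMM-scaled library sizes, and SE is the log2 fold change over the square root of F. Replicates differed by far more than sampling noise (chi-square per degree of freedom of at least 14.8), so none was counted as a duplicate. ATAC shares were compared with exact permutation tests in scipy 1.17.1. Gene spans and promoters came from RefSeq tables of GRCm38.p6. All 9 genes matched a span and 7 a promoter, all but Car1 and Car2. Hbb-b1, Hbb-b2, Ahsp and Fam132b of the lists matched no symbol in the files.

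The genes and lists were chosen with earlier results of these data known. Named from the lists were called genes or, with none called, the 2 of highest mean CPM, and the 5 genes most correlated with Car1 and with Car2. Alternatives were other scaling, no filter, DESeq2 1.42.0, voom in limma 3.58.1, the replicate number as a block, leaving out each library, and other ATAC windows and thresholds. Values of 1 list gene are not reported here.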

Additional observations from a re-analysis of the deposited data

How the results depend on the processing

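Of the 9 genes, 8 kept the sign of their log2 fold change under all 12 RNA alternatives, and Klf1 turned to 0.11 without Kdm6b-KO replicate 2 and 0.19 without Kdm6b-KO replicate 3, in a range of -1.0002 to 0.19 on leaving out 1 library. Of 108 such values, 6 passed the threshold: Car2 with no low-count filter and with DESeq2, Gata1 and Hbb-bt with no filter, and Car1 and Ermap without Kdm6b-KO replicate 1. The log2 fold changes of Car1 and Ermap were -2.82 and -3.64 with voom. The calls support nothing, as the genes were chosen on this contrast. The 70 calls over all genes became 576 with no filter and 467 with DESeq2, and 20 to 519 on leaving out 1 library (519 without Control 1, 46 without Control 2, 161 without Control 3, 24 without Kdm6b-KO 2 and 20 without Kdm6b-KO 3). The 0 calls among other erythroid list genes became 2 with library totals, 8 with no filter, 5 with DESeq2, and 0 to 6 on leaving out 1 library (5 without Control 1 and 6 without Kdm6b-KO 1). Library totals moved the median log2 fold change of all genes to 0.15, and relative to it no direction of the 9 turned. With the replicate number as a block, 88 genes and 1 erythroid list gene, Rhd, were called, and the log2 fold change of Car1 was -2.83. Deviations of same-numbered libraries from their group means correlated at r = 0.03, 0.16 and -0.13, beside -0.20 to 0.13 for differently numbered libraries. With 3 libraries a group, these values cannot decide whether the numbers pair the samples. ATAC regions near the genes numbered 34 within 10 kb and 220 within 100 kb, against 113. The difference in ATAC share was -0.56 per 10000 peaks within 10 kb, -2.25 within 100 kb, -2.31 at −log10 q of at least 5, and -1.87 to -0.78 on leaving out 1 library. By the exact permutation test, two-sided, p was 0.3 within 10 kb, 0.1 within 100 kb and at that q. On leaving out 1 library it was 0.1 to 0.3. In the paired analysis of that share by replicate number, p was 0.25 in the exact permutation test, the smallest it allows. The causes were not tested. Low counts limit Klf1 and Hba-a1, and ATAC read depth is unknown here.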
